A study of Mus musculus with 64 samples.

Results

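Lipid droplet and lipolysis genes were described in liver and gonadal adipose tissue of arsenic-exposed mice. They are 10 genes, chosen by name from 48440 gene rows: Plin1, Plin2, Plin4, Plin5, Cidec, Pnpla2, Lipe, Mgll, Abhd5 and G0s2. The humanized mice express the human ortholog of AS3MT, the enzyme that methylates arsenic. As background on this line, the human BORCS7 and AS3MT segment replaces the mouse genes in the germline, so that all tissues carry it. The wild type (WT) mice keep the mouse genes. Both genotypes are of the 129S6/SvEvTac strain. Every animal had received inorganic arsenic (iAs) at 400 ppb in drinking water for 4 weeks, and no unexposed group was analysed here. Ages are not given in the sources used here. Liver mRNA was measured in 3 libraries of humanized males, 3 of WT males, 3 of humanized females and 3 of WT females. Adipose mRNA was measured in 3 libraries of humanized males, 2 of WT males, 3 of humanized females and 3 of WT females. The labels do not say whether a library stands for 1 animal or a pool, so p-values measure the spread between these libraries.

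Fat is stored in cells as lipid droplets, a core of triglyceride under a coat of proteins. Perilipins (Plin genes) sit on that coat and limit the access of lipases, and CIDEC lets droplets fuse and grow. During lipolysis, ATGL (Pnpla2) takes the first fatty acid off a triglyceride, hormone-sensitive lipase (Lipe) acts on the diglyceride, and monoglyceride lipase (Mgll) releases the last fatty acid and glycerol. ABHD5, also called CGI-58, activates ATGL, and G0S2 inhibits it. Adipose tissue uses this pathway to feed other organs during fasting. The liver uses it to burn or export the fat it takes up.

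The mouse genes checked the labels. As3mt had a signal of 0 to 5.98 in humanized livers and 2624 to 6111 in WT livers, and of 0 to 5.33 in humanized adipose tissue and 1218 to 1737 in WT adipose tissue. Borcs7 separated the genotypes in every library too. Values are the authors' normalized signal, which summed to 83100312 to 90417259 per adipose library and 77307210 to 95381805 per liver library. Signal is not corrected for gene length here, so values are compared within a gene only. Liver libraries were made after ribosomal depletion or polyA enrichment, spread unevenly over the genotypes. Each humanized group has 2 made by ribosomal depletion and 1 by polyA enrichment, and each WT group has 1 and 2. Genotype and preparation are thus partly mixed in liver, and preparation was part of the fit. Tests were made with limma on log2 of the signal plus 1, adjusted over all 15180 liver or 17394 adipose genes tested, and a gene was called at an adjusted p under 0.05. In adipose tissue, 3 libraries stood apart in macrophage, hepatocyte or brown and beige adipocyte markers, and WT male replicate 4 in muscle markers. Humanized male replicate 4 had a summed signal of 412111 for 13 macrophage markers, led by Lyz2 and Csf1r, against 46308 to 179179 in the other 10 libraries. WT male replicate 5 had 263103 for 12 hepatocyte markers, led by Alb and Serpina1b, against 4216 to 33490 elsewhere. WT female replicate 4 had 30137 for 7 brown and beige adipocyte markers, led by Cidea and Ucp1, against 1137 to 4741 elsewhere. For 7 muscle markers, WT male replicate 4 had 35917 and WT female replicate 4 had 39294, against 2656 to 20254 elsewhere.

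Set beside each other, the tissues differed most in the shares of Plin1, Cidec, Plin4 and Lipe. The members together made up 1.52% to 2.26% of the signal of an adipose library and 0.125% to 0.250% of a liver library. Of the 10 members, 7 took a higher share in every adipose library than in any liver library, where 47.9% of 17961 genes did, and Plin5 alone was lower in every adipose library, where 8.56% of genes were. G0s2 and Plin2 overlapped. The tissues came in separately normalized tables and were prepared by different protocols, and the adipose protocol may enrich newly made RNA, so these values were not tested.

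Plin1, the perilipin of adipocytes, had 161990 to 277139 in adipose tissue. In liver its signal was 0 to 12.3, under the mean of 10 needed for a test, so 9 of the 10 members were tested there. Cidec took a share 984-fold higher in adipose tissue than in liver, Plin4 138-fold, Lipe 102-fold and Pnpla2 25.4-fold. Abhd5 stood at 6.49-fold and Mgll at 5.76-fold. The droplet proteins Cidec and Plin4 and hormone-sensitive lipase thus had larger folds than the ATGL activator and monoglyceride lipase.

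G0s2 took 0.0244% ± 0.00873 of adipose libraries and 0.0183% ± 0.0102 of liver libraries (SD, n = 11 and 12). Plin2, the perilipin found on droplets of most cell types, took 0.0608% ± 0.0314 of adipose libraries and 0.0745% ± 0.0343 of liver libraries (SD, n = 11 and 12). Both genes had ranges that overlapped between the tissues. Plin5, the perilipin of tissues that burn fat such as liver, heart and muscle, took 0.00232% ± 0.00116 of adipose libraries and 0.0120% ± 0.00529 of liver libraries (SD, n = 11 and 12). Its share was 5.16-fold higher in liver.

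**Figure D1:**
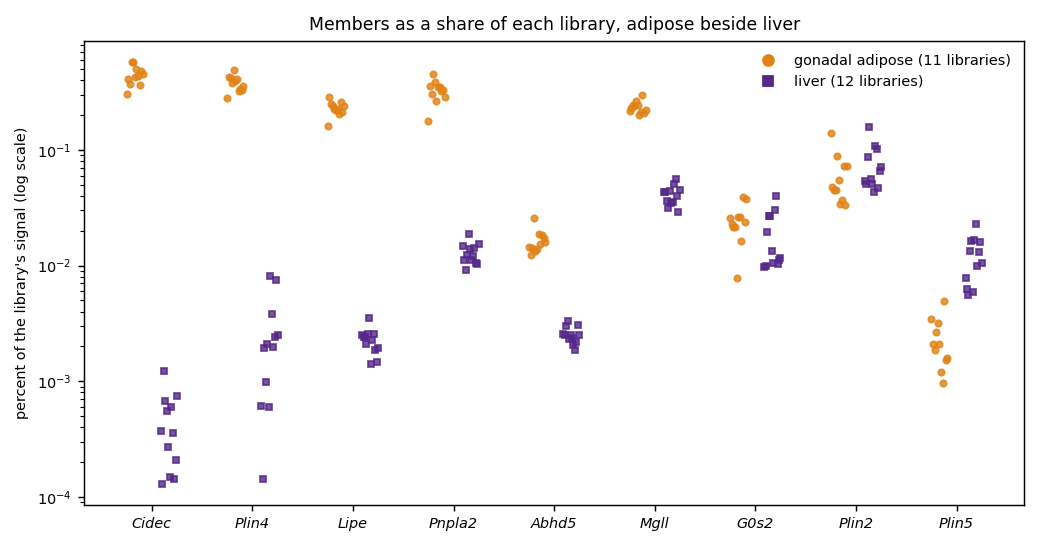
Share of each library's normalized signal taken by 9 members, on a log scale, with 11 adipose libraries to the left of 12 liver libraries for each gene. Cidec, Plin4, Lipe, Pnpla2, Abhd5 and Mgll are higher in all adipose libraries, G0s2 and Plin2 overlap, and Plin5 is higher in all liver libraries.

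Sex was the comparison in which a member passed the test in liver. Plin4, a perilipin that coats small nascent droplets, was lower in males than in females. Of the 9 members tested, 1 was called lower and 0 higher, where 5.47% of all liver genes were called lower in males, 4.12% higher and 9.59% in all. A count of 1 in 9 lies near the share over all genes, so it is not a result about the members as a group. The call concerned Plin4 alone, and the other perilipins of liver were not called.

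Plin4 had a liver signal of 532, 130 and 1508 in humanized males and of 887, 2012 and 504 in WT males. It had 6832, 3229 and 1655 in humanized females and 2037, 6005 and 2210 in WT females. The 6 females stood above the 6 males but for 1 overlap, humanized female replicate 3 (1655) lying below WT male replicate 2 (2012). The male minus female difference was −2.22 ± 0.57 on the log2 scale (SE; 95% interval −3.48 to −0.97; limma adjusted p = 0.0348). Within libraries made by ribosomal depletion, Plin4 was −2.85 (log2, mean of 3 males minus mean of 3 females), and within polyA libraries it was −1.60. Within each preparation the highest male lay below the lowest female, with a signal of 887 against 1655 after ribosomal depletion and 2012 against 2210 after polyA enrichment. Plin4 was the 1 of 9 members with males lower in both preparations in this way, where 4.02% of all genes tested were. The call was lost without any 1 of humanized male replicate 1 or 2, WT male replicate 3, humanized female replicate 1 and WT female replicate 1 or 2, when the difference was −1.81 to −2.35 with limma adjusted p between 0.0509 and 0.0792.

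Genes listed as markers of other cells moved with sex in the same livers. Of 10 endothelial markers, 8 were called lower in males, with a summed signal of 8212 to 12485 in males and 11830 to 21340 in females. Of 13 macrophage markers, 5 were called lower and 1 higher in males, with 16103 to 28145 in males and 22824 to 43790 in females. Of 7 T cell markers, 3 were called lower. Of 12 hepatocyte markers, 0 were called (limma), and 1 had an unadjusted p under 0.05. The 13 adipocyte markers summed to 117703 to 357949 in male livers and 40516 to 108035 in female livers, without overlap. Car3, which hepatocytes also express, led that sum and was called higher in males (1.45, male minus female, log2; limma adjusted p = 0.0244), and Slc2a4 was called lower (−1.43; 0.0332). The 7 brown and beige markers summed to 2418 to 19398 in males and 120 to 451 in females. Elovl3 led that sum and was called higher (5.53; limma adjusted p = 5.85e-06), while Cox7a1 was called lower (−1.03; 0.0499). A sum led by 1 gene does not tell whether brown or beige cells were present. Some single genes of adipocytes had low values in liver: Adipoq at 0 to 7.0, Plin1 at 0 to 12.3, Lep at 0 in 6 of 12 libraries, Retn at 0 in 8 and Ucp1 at 0 in 11. These genes are picked, Plin1 is a member and not on the marker list, and the sums above stand for the whole lists. Whether the livers held fat cells was not tested. The part of these marker genes in the Plin4 difference was not tested, and in whole tissue fewer cells of a type and less RNA per cell cannot be told apart.

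**Figure D2:**
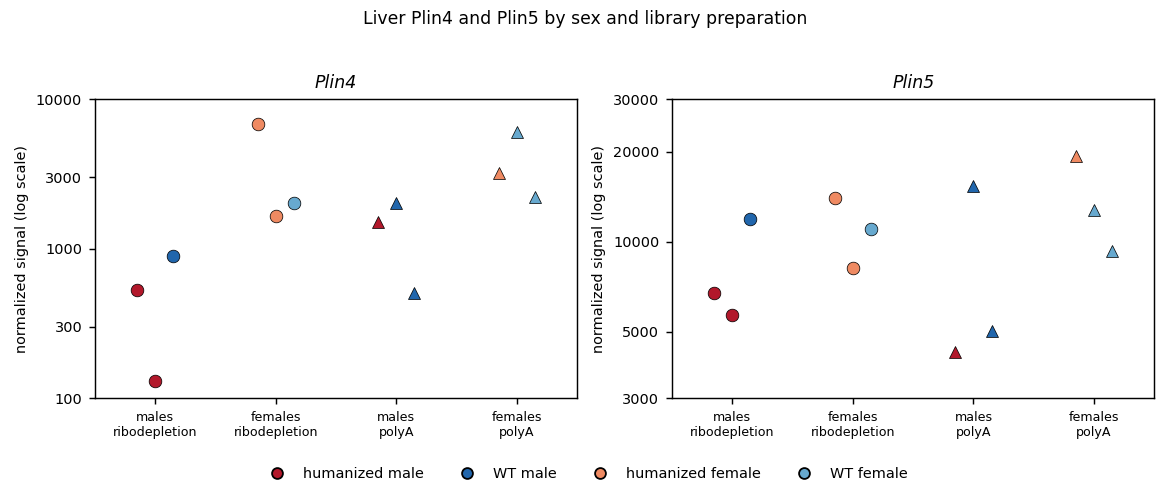
Liver signal of Plin4 and Plin5 (log scale) in each of 12 libraries, grouped by library preparation and sex and coloured by genotype. For Plin4 the 3 males lie below the 3 females within each preparation (log2 means differing by −2.85 and −1.60), while for Plin5 males and females overlap.

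Plin5 is the neighbour of Plin4 on chromosome 17 in the RefSeq gene order (GRCm38.p6). It had 6759, 5699 and 4289 in humanized males, 11958, 15420 and 5021 in WT males, 14044, 19411 and 8165 in humanized females and 11058, 12779 and 9287 in WT females. The 3 humanized males and WT male replicate 3 were below all females. The male minus female difference was −0.71 ± 0.29 (log2, SE), with a limma adjusted p of 0.156, and it was −0.49 after ribosomal depletion and −0.93 after polyA enrichment. Over the 12 livers the log2 signals of Plin4 and Plin5 had a Pearson r of 0.665, a description of libraries that differ in sex and preparation.

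The stretches upstream of both genes are shown because these neighbours were lower in most males, and those of Plin2 and G0s2 because these had the highest correlation between members in liver (Pearson r of 0.761 over the same 12 livers). They come from RefSeq's promoter windows of GRCm38.p6, cut where the annotated gene begins, 5′ to 3′ on the gene's strand. Capitals mark AGGTCA, the core site of nuclear receptors, and CCAAT, each on either strand (TGACCT is AGGTCA read on the other strand).
Plin4, chr17:56109949-56110032, minus strand: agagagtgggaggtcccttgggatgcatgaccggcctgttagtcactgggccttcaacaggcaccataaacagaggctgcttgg
Plin5, chr17:56117607-56117798, minus strand: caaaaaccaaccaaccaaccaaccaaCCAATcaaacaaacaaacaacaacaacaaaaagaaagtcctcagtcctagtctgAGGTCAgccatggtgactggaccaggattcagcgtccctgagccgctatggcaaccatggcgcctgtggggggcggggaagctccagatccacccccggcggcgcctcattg
Plin2, chr4:86670218-86670309, minus strand: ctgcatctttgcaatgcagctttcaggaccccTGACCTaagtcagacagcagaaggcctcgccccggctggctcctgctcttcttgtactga
G0s2, chr1:193273189-193273438, minus strand: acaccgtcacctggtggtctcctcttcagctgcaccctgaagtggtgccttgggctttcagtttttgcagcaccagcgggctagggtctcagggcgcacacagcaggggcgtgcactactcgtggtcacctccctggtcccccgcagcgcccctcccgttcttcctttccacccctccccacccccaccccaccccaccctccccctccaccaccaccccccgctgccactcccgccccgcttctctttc

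All 10 members had a window, 14 windows in all, each reaching from 250 bases before to 50 bases after a start. AGGTCA was in 4 of the 14 windows (those of Abhd5, Plin2 and Plin5) and in 16.3% of 32851 RefSeq windows of the same length. CCAAT was in 3 (Plin2, Plin4 and Plin5) and in 37.4% of all windows. CACGTG, an E-box, was in 3 (Lipe, Mgll and Plin2) and in 7.15% of all. TATAAA, TGACGTCA and the DR1 element, a direct repeat of AGGTCA with 1 base between, of the kind that PPAR binds with RXR, were in 0 of the 14 and in 13.6%, 1.79% and 0.0396% of all windows. Each was searched on both strands, AGGTCA lies within DR1, and a match is a description of letters only.

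Among the lipases of liver, Lipe ran opposite to Plin4 between the sexes without being called. Lipe had 2156, 2202 and 1870 in humanized males, 1904, 2458 and 3019 in WT males, 1182, 1942 and 2128 in humanized females and 1579, 1180 and 1707 in WT females. WT males were all above WT females, while humanized males and females overlapped. The share of all genes with WT males and WT females apart in this way was not counted. The male minus female difference was 0.50 ± 0.17 (log2, SE; limma adjusted p = 0.0977). Abhd5, the ATGL activator, differed by 0.26 ± 0.12 (log2, SE; limma adjusted p = 0.199). At an unadjusted limma p under 0.05 were 3 of 9 members, Plin4, Plin5 and Lipe, and 26.1% of all genes. The remaining 5 members, Plin2, Cidec, Pnpla2, Mgll and G0s2, lay between −0.05 and 0.57, with limma adjusted p from 0.538 to 0.929. For Cidec, the 95% interval ran from −0.57 to 1.71.

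Genotype was asked next, that is whether humanized and WT livers differed in fat storage genes under the same arsenic exposure. No member was called in liver by limma, in males (0.0329% of all genes called), in females (0.0198%), over both sexes (0.0329%) or for the genotype by sex difference (0.00659%). At an unadjusted limma p under 0.05 were 0 of 9 members in males (7.13% of all genes), 1 in females (5.66%), 0 over both sexes (5.07%) and 1 for genotype by sex (8.18%), and the member was G0s2 each time. Over both sexes, the 95% interval of 7 of the 9 members lay within 1 of 0 on the log2 scale. The exceptions were Plin4 (−1.48 to 1.17) and Cidec (−0.94 to 1.48). Fewer intervals lay within that bound in males (3 of 9), in females (4 of 9) and for genotype by sex (1 of 9).

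G0s2, the inhibitor of ATGL, had 8492, 8960 and 14933 in humanized male livers, against 24192, 25508 and 11296 in WT male livers. In females it had 8920, 25602 and 33295 in humanized livers, against 8719, 9019 and 10105 in WT livers. The humanized males were low but for replicate 3, the humanized females high but for replicate 1, and the genotypes overlapped in each sex. The humanized minus WT difference was −0.79 ± 0.47 in males and 1.17 ± 0.47 in females (log2, SE; limma adjusted p = 0.742 and 0.786). The genotype by sex difference, male minus female, was −1.96 ± 0.65 (log2, SE; 95% interval −3.40 to −0.52; limma adjusted p = 0.585). In females G0s2 was higher in humanized livers by 0.98 after ribosomal depletion and 1.42 after polyA enrichment, and in males it differed by −1.47 and −0.19 (log2 means of 1 or 2 libraries a side). Neutrophil markers, 8 genes of cells that also make G0s2, summed to 309, 1442 and 115 in humanized females and 68.1, 55.7 and 142 in WT females, and their part in the G0s2 values was not tested.

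Plin2 had 1 high library in liver. Its signal was 46527, 46421 and 67725 in humanized males, 143376, 53891 and 42727 in WT males, 36563, 92826 and 83916 in humanized females and 39704, 52616 and 62092 in WT females. WT male replicate 1 was the highest of the 12 livers. The difference was −0.37 ± 0.48 in males and 0.40 ± 0.48 in females (log2, SE; limma adjusted p = 0.890 and 0.874), and without WT male replicate 1 the value in males was 0.54. Within preparations the male value was −1.625 after ribosomal depletion, where that library is the only WT male, and 0.497 after polyA enrichment.

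Plin5 was 5582 ± 1239 in humanized males and 10800 ± 5295 in WT males, and 13874 ± 5625 in humanized females and 11041 ± 1746 in WT females (SD, n = 3 each), with limma adjusted p of 0.717 and 0.916. Pnpla2, the ATGL gene, was 10066 ± 2866 in humanized males and 13647 ± 3675 in WT males, and 10468 ± 1149 in humanized females and 10268 ± 2809 in WT females (SD, n = 3 each). Pnpla2 differed by −0.46 in males and 0.05 in females (log2; limma adjusted p = 0.742 and 0.973), and Plin4, whose values stand above, by −0.74 and 0.43 (0.868 and 0.922). None of the 3 genes passed the test. With each library left out in turn, the difference in males ran from −0.68 to −0.09 for Pnpla2, −1.66 to −0.02 for Plin4 and −1.28 to −0.53 for Plin5 (log2). After ribosomal depletion and polyA enrichment it was 0.03 and −1.03 for Pnpla2, and −1.75 and 0.58 for Plin4. For Plin5 it was −0.95 and −1.04 (log2 means of 1 or 2 libraries a side). Cidec ranged 8.06-fold over the 12 livers, from 118 to 954, with 322, 118 and 954 in humanized males, against 455 ± 202 in WT males (SD, n = 3), and 125, 506 and 295 in humanized females, against 122, 167 and 656 in WT females. Its direction in males depended on the model: the difference was 0.02 with preparation in the fit and −0.34 without it. Cidec in males also differed in sign between preparations, at −1.64 after ribosomal depletion and 1.46 after polyA enrichment. Lipe, Pnpla2, Mgll and Abhd5 ranged 2.56-fold, 2.51-fold, 1.98-fold and 1.92-fold over the 12 libraries, less than the other 5 members tested in liver. Mgll was 35042 ± 5962 in humanized males and 33399 ± 7356 in WT males, and 39880 ± 8650 in humanized females and 32147 ± 8202 in WT females (SD, n = 3 each). Abhd5 was 2271 ± 58.5 in humanized males and 2427 ± 471 in WT males, and 1769 ± 234 in humanized females and 2168 ± 308 in WT females (SD, n = 3 each). The Abhd5 difference in females was −0.30 ± 0.17 (log2, SE; limma adjusted p = 0.786), with the genotypes overlapping.

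As a group, 2 of the 9 liver members were above 0 for humanized minus WT in males and 8 of 9 in females, where 49% and 49.1% of all genes were above 0. The median difference was −0.37 in males and 0.31 in females, beside −0.01 and −0.01 over all genes. For genotype by sex, 1 of 9 was above 0 with a median of −0.50, beside 50.7% and 0.01 over all genes. Markers of other cells moved in the same contrasts. Stellate and fibroblast markers were above 0 in 9 of 12 genes in males and 1 of 12 in females, and endothelial markers in 8 of 10 and 1 of 10, with 10 of 10 above 0 and a median of 0.84 for genotype by sex (log2), and 0 of either list were called (limma). At an unadjusted p under 0.05 were 1 and 0 of 12 stellate and 2 and 0 of 10 endothelial markers in males and females. Their part in the members' values was not tested, and the members share libraries, so these counts are descriptions.

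**Figure D3:**
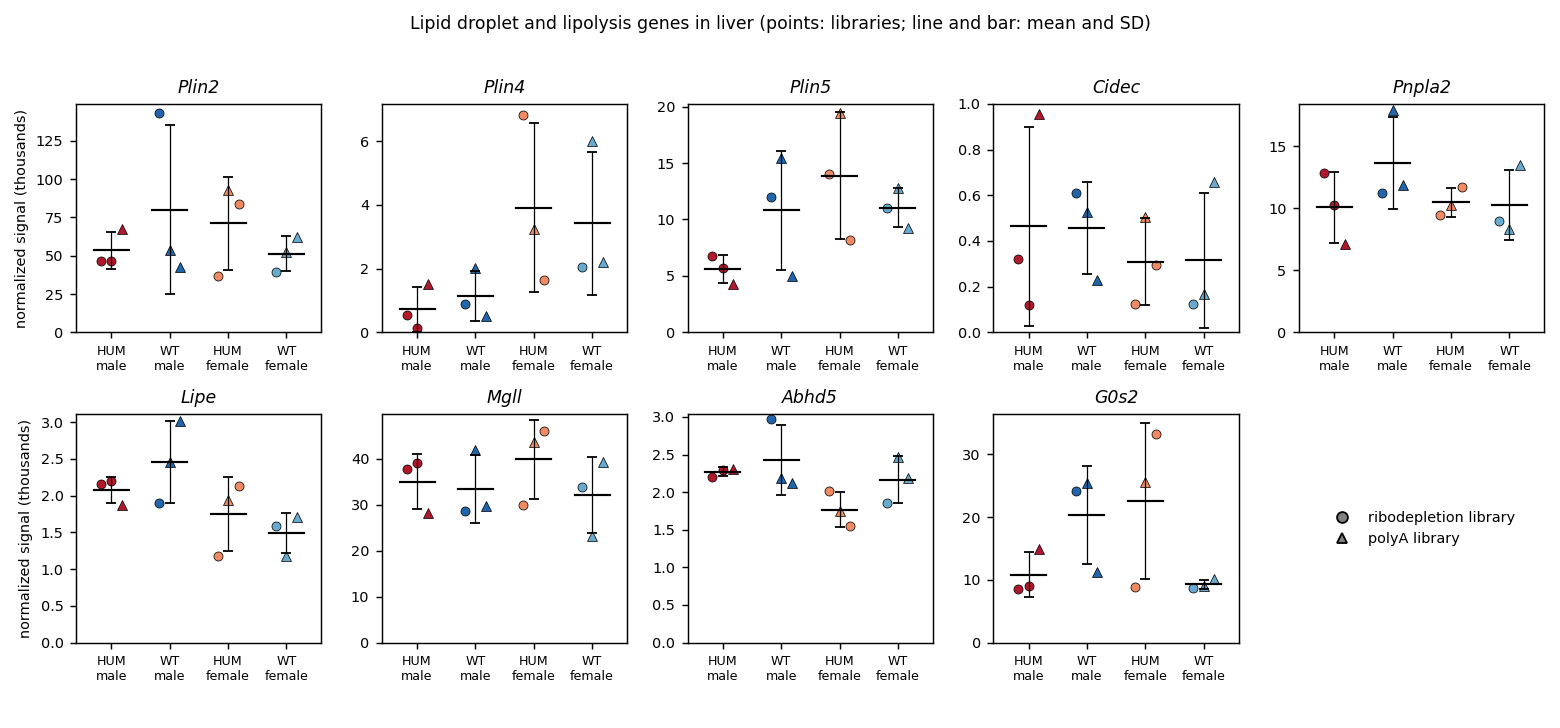
Liver signal of the 9 members tested, by group, with circles for ribodepletion and triangles for polyA libraries and the mean and SD as line and bar (n = 3 each). Plin4 is low in both male groups, and G0s2 runs from 8492 to 33295, both in humanized livers.

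In gonadal adipose tissue no member was called by limma for genotype or sex. The background of calls was 0.0172% in males, 0.0172% in females, 0.023% over both sexes, 0% for genotype by sex and 0.42% for males against females. At an unadjusted limma p under 0.05 were 1 of 10 members in males (Cidec; 8.41% of all genes), 0 in females (5.25%), 0 over both sexes (7.11%), 1 for genotype by sex (G0s2; 6.80%) and 0 for sex (12.5%). Over both sexes, 9 of 10 intervals of the genotype difference lay within 1 of 0 (log2), the exception being Plin5 (−1.35 to 0.24). Within that bound were 4 of 10 in males, 7 of 10 in females and 2 of 10 for genotype by sex. Over the 11 libraries Mgll ranged 1.62-fold, Plin1 1.71-fold, Plin4 1.75-fold and Lipe 1.88-fold, while Plin2, G0s2 and Plin5 ranged 4.02-fold, 5.46-fold and 5.53-fold.

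Humanized males were below both WT males, without overlap, in 3 of the 10 members: Cidec, Pnpla2 and Mgll. Of all adipose genes, 12.1% were lower without overlap and 23.3% did not overlap in either direction, with 3 libraries against 2. Cidec had 250901, 358918 and 327865 in humanized males, against 520188 and 475874 in WT males. The 2 WT males were also above all 6 females, which had 363192, 422419 and 363449 (humanized) and 329253, 413827 and 386157 (WT). How many of all genes stand apart in that way was not counted. The Cidec difference in males was −0.69 ± 0.25 (log2, SE; 95% interval −1.25 to −0.12; limma adjusted p = 0.497), and that in females 0.03 ± 0.23 (limma adjusted p = 0.996).

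Pnpla2 had 148755, 313048 and 266573 in humanized males, against 411672 and 321175 in WT males. In females it had 225268, 290495 and 293126 in humanized libraries and 293612, 285711 and 242295 in WT libraries. The lowest of the 11 libraries was humanized male replicate 4 and the highest WT male replicate 4. The Pnpla2 difference in males was −0.65 ± 0.33 (log2, SE; limma adjusted p = 0.642), and that in females −0.03 ± 0.29 (limma adjusted p = 0.997). WT male replicate 4, with high muscle markers, was also the highest for Cidec. Without it the difference in males was −0.62 for Cidec and −0.47 for Pnpla2 (log2). The part of the muscle markers in these values was not tested. Mgll had 181084, 203132 and 215618 in humanized males, against 217291 and 219033 in WT males, a difference of −0.13 ± 0.23 (log2, SE; limma adjusted p = 0.901). Over the 11 libraries Cidec and Pnpla2 had a Pearson r of 0.829 on the log2 scale, as a description.

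Humanized male replicate 4, the library with the high macrophage markers, had the lowest Plin1 (161990), Plin4 (233119), Cidec, Pnpla2 and Lipe (134782) of the 11 libraries and the highest Plin2 (115574). Its 13 adipocyte markers summed to 1863266, against 3043264 to 4111376 in the other 10 libraries. Plin2, which macrophages also make as they take up fat, had 41816 and 39143 in the other humanized males, 40319 and 73937 in WT males, 46901, 28747 and 31160 in humanized females and 65026, 28926 and 61253 in WT females. Without that library the difference in males was −0.54 for Cidec (limma adjusted p = 0.708), −0.33 for Pnpla2 (0.911) and −0.43 for Plin2, against 0.07 for Plin2 with it. Of 13 macrophage markers, 10 were above 0 in humanized minus WT males, with a median of 0.66 (log2). Over all genes 51.1% were above 0, with a median of 0.01. Of these markers 0 were called (limma), 0 having an unadjusted p under 0.05. Humanized male replicate 4 is included, and the marker sums overlapped, at 103757 to 412111 in humanized and 69149 to 169174 in WT males. The part of macrophage markers in the members' values was not tested.

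The remaining coat genes were not called by genotype. Plin1 was 233015 ± 62109 in humanized males and 185438 ± 13989 in WT males (SD, n = 3 and 2), and 215107 ± 26933 in humanized females and 241083 ± 27862 in WT females (SD, n = 3 each), with limma adjusted p of 0.806 and 0.976. Plin4 was 325096 ± 79968 in humanized males and 374421 ± 45874 in WT males (SD, n = 3 and 2), and 314986 ± 39887 in humanized females and 296281 ± 9807 in WT females (SD, n = 3 each). The sex difference of Plin4 seen in liver was 0.18 ± 0.18 in adipose tissue (log2, SE; limma adjusted p = 0.722), and the 2 tissues were not tested against each other.

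Plin5 had 2847, 1837 and 1637 in humanized males, 2422 and 2648 in WT males, 1779, 1012 and 804 in humanized females and 4443, 1299 and 1348 in WT females. The highest was WT female replicate 4, the library with the high brown and beige adipocyte markers, whose 7 muscle markers also summed to 39294, beside 35917 in WT male replicate 4 and 2656 to 20254 elsewhere. The difference in females was −0.81 ± 0.47 (log2, SE; limma adjusted p = 0.935), and −0.23 without that library. The part of these cells in Plin5 was not tested.

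G0s2 in adipose tissue had 21414, 20097 and 18835 in humanized males, against 19509 and 6462 in WT males. In females it had 22290, 21851 and 13779 in humanized libraries, against 35272, 20606 and 32053 in WT libraries. WT male replicate 5, the library with the high hepatocyte markers, was the lowest of all 11, and WT female replicates 4 and 6 were the highest. The difference was 0.84 ± 0.42 in males and −0.60 ± 0.38 in females (log2, SE; limma adjusted p = 0.642 and 0.935). In males it was 0.04 without WT male replicate 5 and 1.64 without WT male replicate 4. The genotype by sex difference was 1.44 ± 0.56 (log2, SE; 95% interval 0.18 to 2.70; limma adjusted p = 0.702), and it was 0.64 without WT male replicate 5 and 2.23 without WT male replicate 4. In liver the same contrast of G0s2 was −1.96, of the opposite sign, and the tissues were not tested against each other.

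Lipe was 202802 ± 61243 in humanized males and 201061 ± 20762 in WT males (SD, n = 3 and 2), and 183151 ± 9929 in humanized females and 206517 ± 27613 in WT females (SD, n = 3 each). Abhd5 had 11942, 10927 and 12418 in humanized males, against 23264 and 11085 in WT males. Its difference was −0.45 ± 0.26 (log2, SE; limma adjusted p = 0.690). It depended on which WT male was kept, at 0.08 without WT male replicate 4 and −0.99 without WT male replicate 5. These libraries had high muscle and high hepatocyte markers, in that order. In females Abhd5 had 11779, 15600 and 13003 in humanized libraries, against 16526, 14901 and 13508 in WT libraries. Mgll had 207632, 167422 and 177766 in humanized female libraries, against 271290, 178326 and 188926 in WT ones. Both overlapped between the genotypes. Between the sexes, the largest adipose differences were those of G0s2 at −0.63 ± 0.28 and Plin5 at 0.60 ± 0.35 (male minus female, log2, SE; limma adjusted p = 0.401 and 0.524). Across the 10 members, 3 were above 0 for humanized minus WT in males and 2 in females, with medians of −0.18 and −0.17, beside 51.1% and 49.8% above 0 and medians of 0.01 and 0.00 over all genes.

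**Figure D4:**
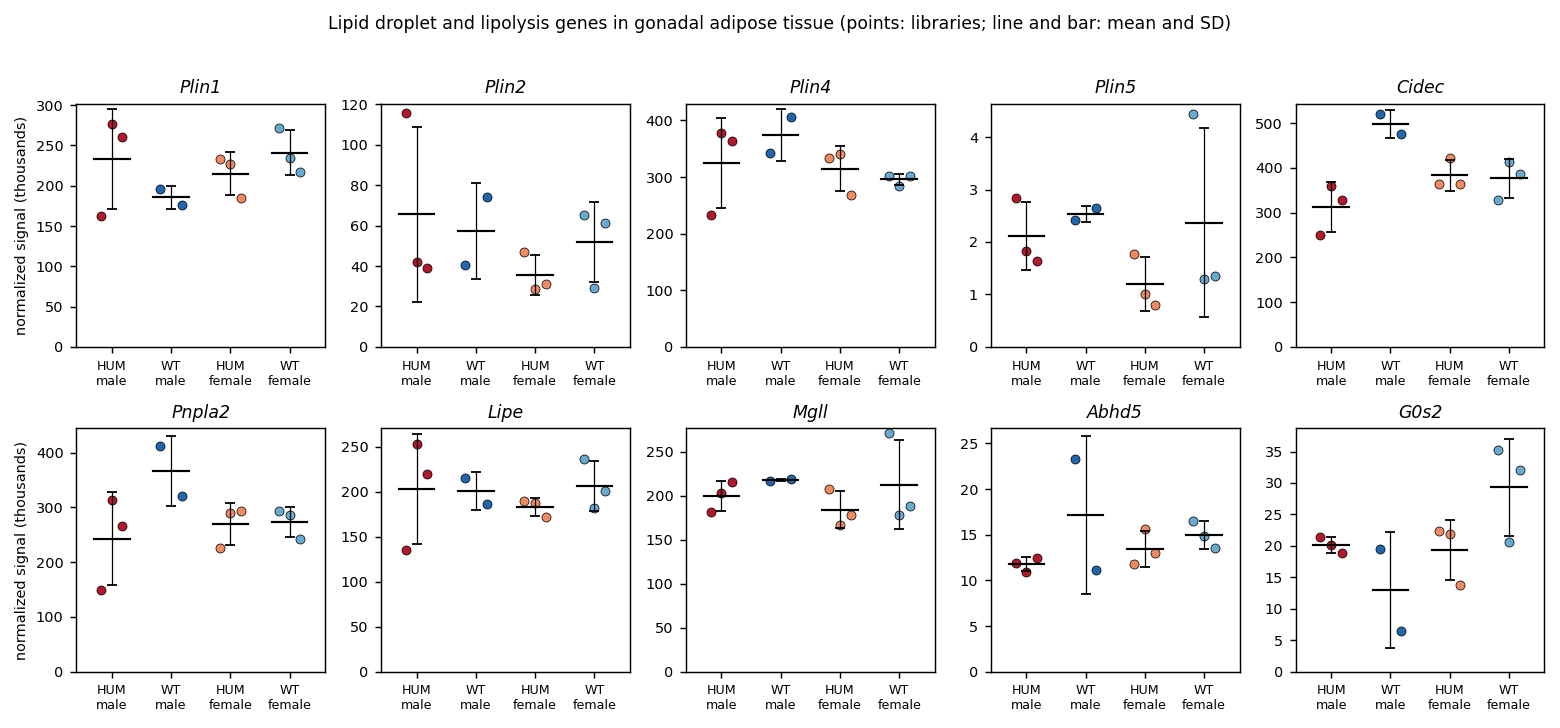
Signal of the 10 members in gonadal adipose tissue, by group, with the mean and SD as line and bar (n = 3, and 2 for WT males). Humanized males lie below WT males for Cidec and Pnpla2, and single libraries stand apart for Plin2 (115574) and Plin5 (4443).

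**Figure D5:**
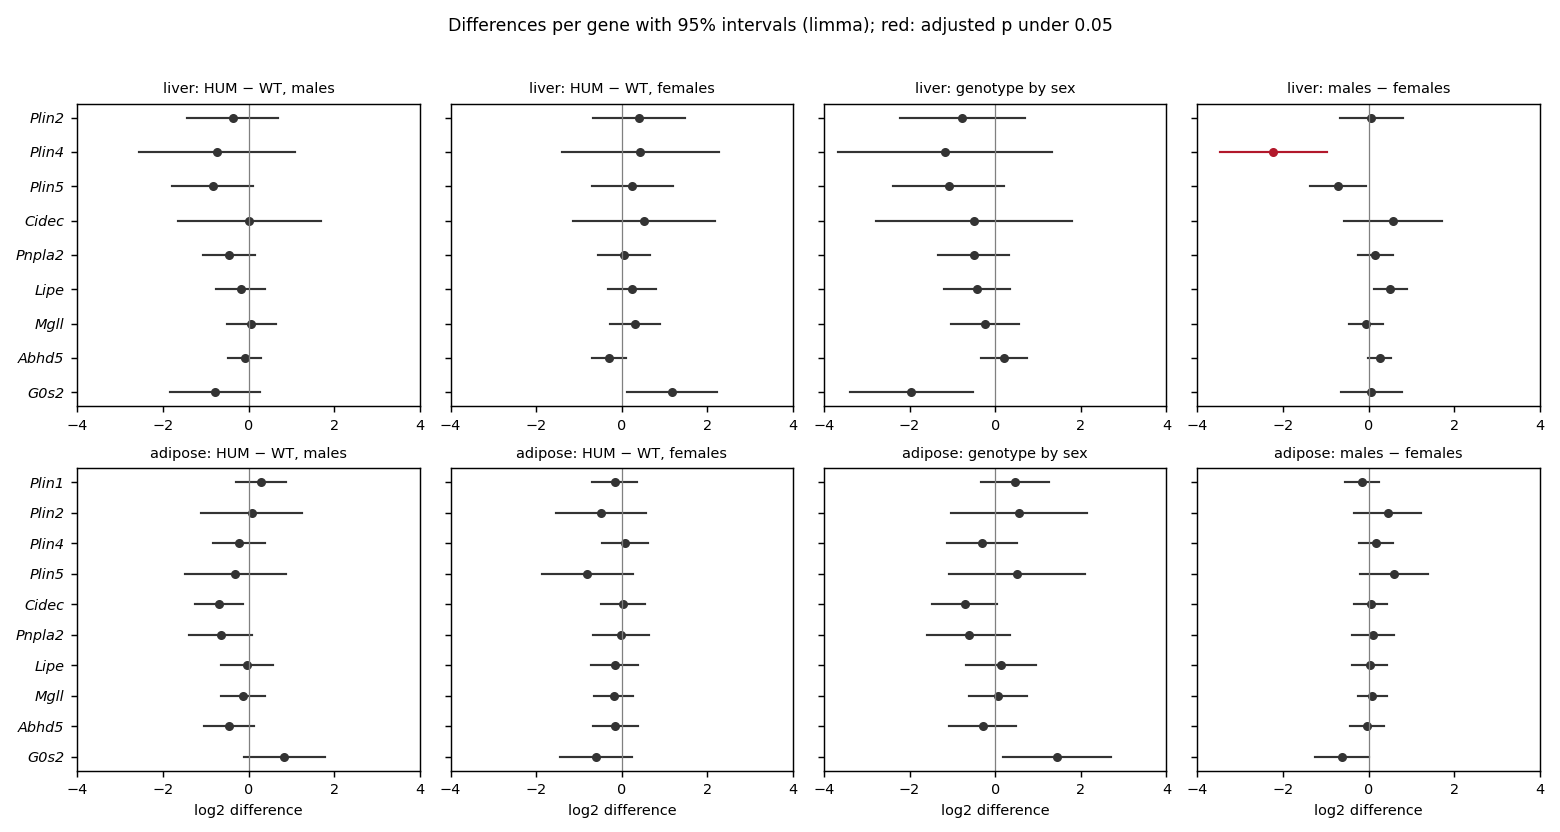
Differences per gene with 95% intervals (log2, limma) for humanized minus WT in males and females, for genotype by sex and for males minus females, in liver (above) and adipose tissue (below). The interval in red is liver Plin4 between the sexes (−2.22), the 1 called member.

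Other genes of fat storage were read from lists of related function. No gene of these 5 lists was called by genotype in either tissue (limma). At an unadjusted p under 0.05 in males were, in liver, 1 of 22 other droplet proteins, 4 of 22 other lipases and carriers, 2 of 30 genes of hormonal control, 5 of 16 transcription factors and 1 of 16 genes of triglyceride assembly, where 7.13% of all genes were. In liver females they were 5 of 22, 2 of 22, 2 of 30, 0 of 16 and 2 of 16 in the same order, where 5.66% of all genes were. In adipose tissue they were 6 of 23, 2 of 23, 4 of 36, 3 of 16 and 5 of 16 in males (8.41% of all genes), and 0 of 23, 1 of 23, 3 of 36, 1 of 16 and 0 of 16 in females (5.25%). Nearest to a call was liver Pde4b, a phosphodiesterase that breaks down the cAMP which drives lipolysis, at 1.65 in males (log2; limma adjusted p = 0.0503). Pnpla3, a droplet lipase and acyltransferase related to ATGL, was 2.94 in males and −1.60 in females (log2; limma adjusted p = 0.234 and 0.786). In adipose males, Dgat2, which makes triglyceride at the droplet, was 1.41 and Lpin1, which makes its diglyceride precursor, was −0.85 (log2; limma adjusted p = 0.335 and 0.277).

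Between the sexes, 9.59% of all liver genes and 0.42% of all adipose genes were called, and the counts of these lists are read against that share. Liver called 3 of 22 other droplet proteins, with Fitm1, which helps package droplets, at 2.74 and Ldah at 0.48 higher and Pnpla3 at −2.68 lower in males (male minus female, log2). Of 22 other lipases and carriers, Ces3a, a carboxylesterase, at 2.16 and Pnpla7 at 0.83 were higher in males and Pnpla3 lower. Of 30 genes of hormonal control, 4 were lower in males and 0 higher, where 5.47% of all liver genes were lower. They included Adra2a, a receptor that restrains lipolysis (−3.50), and the natriuretic peptide receptors Npr1 (−0.54) and Npr3 (−1.24). Foxo1, a fasting transcription factor, was 1 of 16 (−0.53), and Lpin1 1 of 16 in triglyceride assembly (−1.52). The limma adjusted p of these genes lay between 3.37e-05 and 0.0465. In adipose tissue, 2 of 36 genes of hormonal control were called lower in males, both receptors that restrain lipolysis: Npy1r (−1.95, limma adjusted p = 0.0179) and Ptger3 (−0.67, limma adjusted p = 0.0434). The other 4 lists, of the sizes given above, had 0 called in adipose tissue between the sexes. Each had 3 to 5 genes at an unadjusted limma p under 0.05, where 12.5% of all adipose genes were.

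Genes with the most similar profiles were sought among 11768 liver and 13635 adipose genes with a mean signal of at least 100, by Pearson r of log2 signal over the 12 or 11 libraries. For Plin4 in liver they were Pik3r5 (0.924), Csf2ra (0.912) and Strn4 (0.911). For Plin5 they were Dcun1d3 (0.958), Zc3h10 (0.891) and Zfp740 (0.889). For Plin2 they were Stx5a (0.916), Tsr1 (0.905) and Gnl3 (0.903), and for G0s2 Urm1 (0.951), Trim27 (0.944) and Ccdc191 (0.936). Cidec had its nearest genes at lower values, with Prox1 (0.820), Irak4 (0.807) and 6030458C11Rik (0.804). In adipose tissue Plin1 was nearest to Ffar4 (0.929), Miga2 (0.900) and mt-Nd6 (0.897), and Lipe to Lin52 (0.963), Lsm12 (0.924) and Vegfb (0.923). These are the highest of many correlations over few libraries. Among the members themselves, Plin1 and Lipe had 0.806 and Mgll and Plin5 0.789 in adipose tissue, while Plin4 and Lipe had −0.707 and Plin2 and Cidec 0.665 in liver. Humanized male replicate 4, with high macrophage markers, was the lowest adipose library for both Plin1 and Lipe. WT female replicate 4, with high brown and beige and muscle markers, was the highest for both Mgll and Plin5. The correlations without these libraries were not computed.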

How the data were processed

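The 12 liver and 11 adipose mRNA libraries were analysed, and 41 small RNA libraries were not used. Both tables hold gene signal normalized with DESeq2 as the authors deposited it, per the submitters' processing notes, which also name STAR, Salmon, limma and the mm9 build without versions or roles. Such signal has no whole reads to count, so depth per gene is unknown. Adipose libraries followed a published protocol cited in the labels, which do not tell steady-state from nascent RNA.

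Genes with a mean signal of at least 10 were fitted with limma 3.58.1 (R 4.3.3, empirical Bayes with trend) on log2 of signal plus 1, with 1 model of 4 groups per tissue and preparation as a covariate in liver. The fit was run on simulated data, independent normal values with differences added to humanized males only. That simulation held no preparation effect, so it does not tell how often real differences of these genes would be called. Differences are humanized minus WT, or male minus female. Benjamini-Hochberg adjustment ran over all genes tested. Of 48440 gene IDs, 48058 matched a symbol. The members, lists and likeness rule were chosen with earlier results of these data known: all members, called list genes (up to 4, otherwise up to 2 by p), and the 3 most similar genes. A called list gene is not reported here.

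Alternatives were a pseudocount of 10, no filter, a mean of at least 100, upper quartile rescaling, quantile normalization, the replicate block, no preparation covariate, and each library left out.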

Additional observations from a re-analysis of the deposited data

How the results depend on the processing

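All listed alternatives were run. Liver members called between the sexes numbered 1 as reported and 2 with the replicate block, which added Plin5 (limma adjusted p = 0.0307), and 0 to 1 with each library left out in turn. The block changed no other count. Same-numbered libraries deviated together with a correlation over 0.1 in 1 of 18 liver pairs, and other libraries in 5 of 36. This gave no sign of pairing in liver. It could not exclude pairing, since preparation, which differs within some numbers, was left in these deviations. In adipose tissue 9 of 15 same-numbered pairs had a correlation over 0.1 (mean 0.147, against −0.073 for other pairs). Among them were all 3 pairs of humanized and WT females and all 3 of humanized males and females, but not all pairs of any other groups. Of the libraries, 7 of 11 adipose and 2 of 12 liver ones correlated best with their own number. The adipose libraries may thus be paired in part, and the replicate block added no adipose call (limma). Where a WT male adipose library is left out, the lone one left is assumed to vary like the other groups. Of 615 single-gene values under the other settings, 600 kept direction and side of the threshold, 1 passed it, and 14, none called, changed sign.

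Without the preparation covariate, liver Cidec in males was −0.335, and over both sexes Plin2 was −0.007, Cidec −0.088 and Lipe −0.008 (log2, humanized minus WT). With the replicate block, liver Mgll in males was −0.015, and over both sexes Plin2 was −0.031, Plin4 0.332 and Lipe −0.077. With quantile normalization, liver Plin2 between the sexes was −0.015, adipose Lipe in males 0.020, Pnpla2 in females 0.097, Mgll for genotype by sex −0.080 and Cidec between the sexes −0.088. With upper quartile rescaling, adipose Lipe between the sexes was −0.005. Except where stated, the cause was not tested.

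With each library left out in turn, these small differences changed sign. In liver, humanized minus WT males ran from −0.705 to 0.538 for Plin2, −0.651 to 1.073 for Cidec, −0.109 to 0.307 for Mgll and −0.168 to 0.153 for Abhd5. In females it ran from −0.187 to 0.949 for Plin4, −0.253 to 0.564 for Plin5 and −0.099 to 0.250 for Pnpla2. Over both sexes it ran from −0.216 to 0.559 for Plin2, −0.703 to 0.157 for Plin4, −0.135 to 0.900 for Cidec, −0.339 to 0.014 for Pnpla2 and −0.108 to 0.138 for Lipe. Cidec for genotype by sex ran from −1.152 to 0.346, and males minus females from −0.300 to 0.255 for Plin2, −0.169 to 0.040 for Mgll and −0.218 to 0.289 for G0s2. In adipose tissue, humanized minus WT males ran from −0.432 to 0.510 for Plin2, −0.220 to 0.236 for Lipe and −0.986 to 0.084 for Abhd5, and females from −0.065 to 0.1 for Cidec and −0.114 to 0.097 for Pnpla2. Over both sexes it ran from −0.009 to 0.185 for Plin1, −0.459 to 0.012 for Plin2, −0.138 to 0.036 for Plin4, −0.193 to 0.035 for Lipe and −0.278 to 0.519 for G0s2. Genotype by sex ran from −0.082 to 0.827 for Plin5, −0.053 to 0.403 for Lipe, −0.129 to 0.173 for Mgll and −0.827 to 0.243 for Abhd5. Males minus females ran from −0.002 to 0.127 for Cidec, −0.006 to 0.262 for Pnpla2, −0.061 to 0.167 for Lipe and −0.308 to 0.227 for Abhd5. With 2 or 3 libraries a group, and depth per gene unknown, differences of this size lie within the spread.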
